A study of Mus musculus with 4 samples.

Results

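The circadian clock genes examined here were Arntl, Clock, Npas2, Per1, Per2, Per3, Cry1, Cry2, Nr1d1 and Dbp, taken by their symbols. All 10 were found, each in 1 row, among the 23282 gene rows deposited for each of 4 lung libraries. Lungs were taken from male CDF1 mice of 4 groups that crossed exercise (E) with tumor (T). The normal control, E(-)T(-), had neither, the normal exercise group, E(+)T(-), ran without tumor, the cancer control, E(-)T(+), had tumor without running, and the cancer exercise group, E(+)T(+), had both. Exercised groups ran on a motorized treadmill at high intensity on alternate days, in morning sessions under a light shield. In the tumor groups CT26, a mouse colon carcinoma line, had been injected into the tail vein. All mice were kept on equal light and dark periods, had free access to chow, and were killed by exsanguination under anesthesia. The labels give postnatal day 28 for every library and the series design gives 10 mice per group, whereas the methods state that the mice were already 4 weeks old when bought. For calf muscle the study used a representative mouse of each group and describes the lung work as similar, but no source says outright whether a lung library held RNA of 1 mouse or of several. Each group had 1 library, so no difference between groups has a replicate check. The hour at which each mouse was killed is not given in the sources used here, and with 1 library per group the hour of sampling and the group cannot be told apart.

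The molecular clock is a transcriptional feedback loop that runs in nearly every cell, including those of the lung. ARNTL (also called BMAL1) pairs with CLOCK or NPAS2 and activates genes through the E-box, and among its targets are the Per and Cry genes, whose proteins return to the nucleus and repress it. NR1D1 (REV-ERB alpha), another E-box target, represses Arntl and related genes through elements shared with the ROR activators, while DBP drives further genes through the D-box. In peripheral organs of mice the RNA of Arntl and Npas2 peaks at about the opposite time of day to that of Nr1d1 and Dbp. Per1 also responds quickly to glucocorticoids and to cAMP signaling.

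Promoter sequences are shown first because the members are known to be wired to each other through these elements. RefSeq start sites (GRCm38.p6, the genome release also called mm10 that the submitters' processing notes name) were matched by symbol for 9 of the 10 members, in 13 windows of 300 bases that run from 250 bases before the start site to 50 after it. The letters searched, on both strands, were CACGTG for the E-box, TTATGTAA or TTACGTAA for the D-box and TAGGTCA or TGGGTCA for the core of the ROR and REV-ERB element. Of the 32851 windows in the reference, 7.15% held the E-box, 1.06% the D-box and 6.45% the ROR core. The E-box letters were found in windows of 2 members, Per1 and Cry1. The D-box letters were found in Per3, in 2 copies, and the ROR core in Arntl. The 250 bases before the start site are given for Per1, Per3 and Cry1, and a short stretch around the match for Arntl, where it lies after the start site. All are written 5′ to 3′ on the strand of the gene, with the matched letters in capitals.
Per1, chr11:69098699-69098948, plus strand: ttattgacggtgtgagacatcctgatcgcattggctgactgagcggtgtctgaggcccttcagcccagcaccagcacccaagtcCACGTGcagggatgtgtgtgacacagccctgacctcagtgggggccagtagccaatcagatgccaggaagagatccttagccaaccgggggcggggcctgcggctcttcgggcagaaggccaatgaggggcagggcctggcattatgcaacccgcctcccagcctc
Per3, chr4:151044666-151044915, minus strand: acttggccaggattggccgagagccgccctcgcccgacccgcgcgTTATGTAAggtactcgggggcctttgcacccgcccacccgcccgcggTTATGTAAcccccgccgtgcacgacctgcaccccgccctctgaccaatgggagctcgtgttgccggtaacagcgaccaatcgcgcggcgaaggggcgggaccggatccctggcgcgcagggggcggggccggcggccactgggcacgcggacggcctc
Cry1, chr10:85185055-85185304, minus strand: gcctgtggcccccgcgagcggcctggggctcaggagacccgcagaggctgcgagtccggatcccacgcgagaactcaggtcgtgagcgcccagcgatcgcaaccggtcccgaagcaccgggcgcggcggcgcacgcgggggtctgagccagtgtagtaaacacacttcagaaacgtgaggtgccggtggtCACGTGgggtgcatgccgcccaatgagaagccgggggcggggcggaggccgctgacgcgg
Arntl, chr7:113207531-113207557, plus strand: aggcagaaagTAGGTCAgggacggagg
The Per1 E-box began 166 bases before the start site of the window shown and that of Cry1 60 bases before its start site. Per1 and Arntl each had another window, which held none of these letters. Shares of the reference are by window, whereas the matches are counted by member. The Per3 D-boxes began 205 and 158 bases before the start site. Windows of Clock, Npas2, Cry2, Nr1d1 and Dbp held none of these letters, which says only that the exact letters are not in those windows.

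Reads were recovered as whole numbers from the deposited values, and totals per library were between 9354559 and 13368060. The 3' mRNA kit makes 1 tag per transcript end, so that values are not divided by gene length. All 10 members passed the filter, a normalized read count averaging 4 or more over the 4 libraries, as did 15164 rows in all. Lung epithelial markers (Sftpa1, Sftpb, Sftpc, Sftpd, Ager, Hopx and Scgb1a1) were present in every library. The cancer control stood apart: all 7 of these markers were 2-fold or more lower there than in the normal control, as were all 5 endothelial markers, against 25.7% of all genes. Of 5 B cell markers 4 had 0 reads there, against 1 in the normal control, 0 in normal exercise and 1 in cancer exercise. Cancer exercise stood apart through blood cells, with hemoglobin genes at 31.43% of its reads, against 14.33% in the normal control, 14.17% in normal exercise and 1.43% in the cancer control. In bulk lung, fewer cells of a type and less RNA per cell cannot be told apart. Another 9 genes had no read in the normal control and 500 normalized counts or more in the cancer control. All 9 were also read in the normal exercise library, at a median of 1.47% of their cancer control level.

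The deposited value of each member in each library was plotted as log2(normalized read count + 1), the scale of all log2 values and differences given here.

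**Figure D1:**
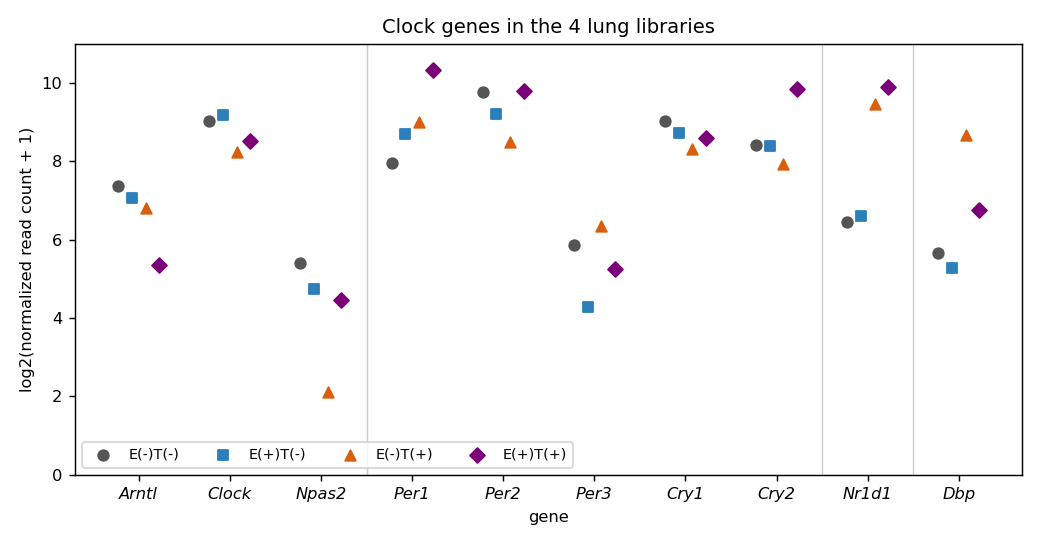
Level of each of the 10 clock genes in the 4 lung libraries, as log2(normalized read count + 1), with 1 point per library and no replicates; vertical lines separate activators, Per and Cry repressors, Nr1d1 and Dbp. The 2 tumor libraries of Nr1d1 sit at 9.48 and 9.91, above 6.47 and 6.61 without tumor, and Arntl is lowest in E(+)T(+).

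Nr1d1 (chr11:98767932-98775333, minus strand), the REV-ERB repressor, separated the tumor libraries from the others most clearly. Its normalized read count was 87.4 in the normal control, 96.4 in normal exercise, 712 in the cancer control and 961 in cancer exercise. The 2 libraries without tumor did not differ beyond counting error and both tumor libraries were far above them. The tumor effect was 3.01 on the log2 scale in resting mice, an 8.07-fold difference, with an exact 95% interval of the read ratio of 2.72 to 3.34. In exercised mice it was 3.30, or 9.88-fold (3.02 to 3.62). All 7 markers of dividing cells were also 2-fold or more higher in both, as were 7 of 9 neutrophil markers in resting mice and 9 of 9 in exercised mice, and their part in the Nr1d1 values was not tested. These 2 tumor comparisons come from disjoint pairs of libraries, and the second does not use the cancer control. Exercise differences were small, 0.14 without tumor (-0.27 to 0.55) and 0.43 with tumor (0.28 to 0.58), the latter turning to -0.18 under scaling by total reads only. Intervals of single genes, here and in what follows, are 95% Clopper-Pearson intervals, given on the log2 scale. Counting error is all they cover.

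Dbp (chr7:45705088-45710203, plus strand), the D-box activator and a widely used output gene of the clock, was also higher in both tumor libraries, but unequally. Its normalized read count was 50.02 in the normal control, 37.6 in normal exercise, 409 in the cancer control and 108 in cancer exercise. The highest library was thus the cancer control, and cancer exercise lay between it and the libraries without tumor. The 7 markers of dividing cells summed to 306.9, 632.4, 8819 and 3115 normalized counts in the same order of libraries. They too were highest in the cancer control and next in cancer exercise. So were the 5 fibroblast markers, which summed to 8708, 7960, 28290 and 10730. With tumor in resting mice, however, 2 of these 5 were 2-fold or more higher and 2 lower. The part of both lists in the Dbp values was not tested. The tumor effect was 3.01 in resting mice (2.63 to 3.45) and 1.49 in exercised mice (0.97 to 2.08). The exercise effect with tumor was -1.92 (-2.52 scaled by total reads only), 3.78-fold lower in cancer exercise, on 92 against 374 reads. Without tumor it was -0.40 on 41 against 59 reads, with an interval from -1.02 to 0.19.

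Both genes overlap a neighbor on the opposite strand at their ends, where a 3' kit places its reads, and whether strand was used in counting is not stated. In GENCODE M21, Nr1d1 shares 263 exonic bases with Thra, a thyroid hormone receptor gene, and Dbp shares 539 with Sphk2, a sphingosine kinase gene. Thra had log2 values of 8.51 and 8.5 in the resting and exercised libraries without tumor and 7.59 and 7.71 in those with tumor, so it was lower where Nr1d1 was higher. Sphk2 had 8.75 and 8.33 without tumor and 9.63 and 9.12 with tumor, and was highest in the cancer control, as was Dbp. The share of reads that could belong to either partner was not tested.

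Among the activators, Arntl (chr7:113207465-113314126, plus strand) is the obligate partner of both CLOCK and NPAS2. Its normalized read count was 164 in the normal control, 133 in normal exercise, 111 in the cancer control and 39.9 in cancer exercise. Cancer exercise was well below the other 3, and the order among the others rested on neighbors whose intervals included 0. On 34 reads, cancer exercise was 2.73-fold lower than the cancer control (log2 difference -1.45, interval -2.08 to -0.90) and 3.28-fold lower than normal exercise (-1.71, interval -2.33 to -1.20). Under scaling by total reads only, the first of these was -2.05. The tumor effect in resting mice was -0.56 (-0.93 to -0.21), inside the 2-fold limit. Cancer exercise was also the library with the highest sums of erythroid and neutrophil markers, and their part in the Arntl values was not tested.

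Clock (chr5:76209868-76304792, minus strand), a DNA-binding partner of ARNTL whose RNA varies little over the day in most tissues, had normalized read counts of 519 and 582 in the resting and exercised libraries without tumor and 299 and 366 in those with tumor. Both tumor libraries were lower than both libraries without tumor, by less than 2-fold: -0.79 in resting mice (-1.0 to -0.58) and -0.67 in exercised mice (-0.87 to -0.47). Scaled by library totals alone, the latter was -1.08, past the limit. Npas2 (chr1:39193731-39363236, plus strand), the partner that can stand in for CLOCK, was the member with the fewest reads. It had 49 reads in the normal control, 28 in normal exercise, 3 in the cancer control and 18 in cancer exercise, or normalized counts of 41.8, 25.7, 3.36 and 21.1. The cancer control was thus far below the other 3 libraries, with a tumor effect of -3.29 in resting mice whose interval ran from -5.99 to -2.03, and -2.64 with a pseudocount of 4. In exercised mice the tumor effect was -0.28 (-1.23 to 0.62). The exercise effect with tumor, 2.34, had an interval of 0.90 to 5.08 and rests on the 3 reads of the cancer control. The 5 endothelial markers summed to 11740, 13830, 1565 and 12220 normalized counts in the same order of libraries and the 7 lung epithelial markers to 650100, 790800, 149500 and 708100, with no marker of either list at 0 reads. The 4 T cell markers summed to 948.9, 754.4, 90.14 and 619.6, and the 5 B cell markers to 711, 531.2, 12.33 and 227.1. All these lists were lowest in the cancer control, as Npas2 was, and their part in its values was not tested.

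The 3 Per genes encode repressors of the loop and did not share a pattern. Per1 (chr11:69095217-69109960, plus strand) had normalized read counts of 248 in the normal control, 417 in normal exercise, 517 in the cancer control and 1291 in cancer exercise. The lowest library was the one with neither treatment and the highest the one with both. It was higher with tumor in both comparisons, by 1.06 (0.85 to 1.28) and 1.63 (1.47 to 1.79), and higher with exercise in both, by 0.75 (0.53 to 0.97) and 1.32 (1.16 to 1.48). Per1 was the only member that was higher in all 4 comparisons with every interval above 0. Glucocorticoid targets and immediate early genes, which share inputs with Per1, were counted beside it. Of 4 glucocorticoid targets (Fkbp5, Tsc22d3, Zbtb16 and Sgk1), 2 were 2-fold or more higher and 1 lower with tumor in resting mice (all genes 20.6% and 25.7%), and 1 higher and 0 lower in exercised mice (all genes 14.9% and 13%). With exercise without tumor 0 were past the limit (all genes 9.98%), as Per1 was not. All 4 were higher inside it, with a median of 0.62 beside 0.0 for all genes. With exercise with tumor 2 were 2-fold or more higher and 1 lower (all genes 24.3% and 17.7%). Of 4 immediate early genes (Fos, Egr1, Nr4a1 and Junb), 2 were 2-fold or more higher with tumor in resting mice, 4 with tumor in exercised mice, 0 with exercise without tumor and 3 with exercise with tumor, and 0 were lower in any of the 4 comparisons. Their part in the Per1 values was not tested.

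Per2 (chr1:91415982-91459324, minus strand) had normalized read counts of 879 in the normal control, 592 in normal exercise, 357 in the cancer control and 890 in cancer exercise. At the deposited scaling, the libraries with both treatments and with neither did not differ beyond counting error (0.02, interval -0.12 to 0.15). Those with a single treatment were lower. Exercise differed by -0.57 without tumor (-0.72 to -0.43) and by 1.31 with tumor (1.13 to 1.51). Tumor differed by -1.30 in resting mice (-1.48 to -1.12) and by 0.59 in exercised mice (0.44 to 0.74). Under scaling by total reads only, exercise differed by 0.71 with tumor and tumor by -1.19 in resting mice. Cancer exercise then lay below the normal control. Per3 (chr4:151003652-151044665, minus strand), a D-box target, had normalized read counts of 57.0 in the normal control, 18.3 in normal exercise, 81.0 in the cancer control and 37.5 in cancer exercise, on 67, 20, 74 and 32 reads. Both exercised libraries were below both resting ones, although cancer exercise and the normal control did not differ beyond counting error at the deposited scaling. The exercise effect was -1.58 without tumor (-2.43 to -0.89) and -1.09 with tumor (-1.76 to -0.50). Under scaling by total reads only, the latter was -1.69, and cancer exercise lay further below the normal control. The tumor effect was 0.50 (0.01 to 1.01) and 0.99 (0.18 to 1.91), inside the 2-fold limit in both.

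The cryptochromes are the partners of the PER proteins in the repressor complex. Cry1 (chr10:85131700-85185064, minus strand) varied least of the members, with a 1.65-fold span from 318 normalized counts in the cancer control to 526 in the normal control. Normal exercise and cancer exercise, at 426 and 386, lay between them and did not differ beyond counting error (-0.14, interval -0.35 to 0.06). Under scaling by total reads only this difference was -0.55, and cancer exercise lay below the cancer control (-0.33). Cry2 (chr2:92403646-92434043, minus strand) had normalized counts of 343 in the normal control, 336 in normal exercise, 245 in the cancer control and 929 in cancer exercise. Cancer exercise was above the other 3, by 3.77-fold over the cancer control (log2 difference 1.92, interval 1.71 to 2.14) and 2.76-fold over normal exercise (1.46, interval 1.29 to 1.65). Under scaling by total reads only, the first of these log2 differences was 1.31. The 7 erythroid markers summed to 1263000 normalized counts in the normal control, 1298000 in normal exercise, 117200 in the cancer control and 3837000 in cancer exercise, and so were likewise highest in cancer exercise and lowest in the cancer control. Their part in the Cry2 values was not tested. Exercise without tumor left a difference of -0.03 (-0.24 to 0.18).

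Across the members, the exercise effect without tumor (normal exercise over normal control) asked what high-intensity running changed in healthy lungs. There 1 of 10 members was past the 2-fold limit, against 9.98% of all 15164 genes. It was Per3, which was lower (background 4.7%), and 0 were higher (background 5.28%). The median of the members was -0.30, beside 0.00 for all genes, and their median absolute difference 0.35 beside 0.28. Intervals left out 0 for 5 of 10 members and for 43.9% of all genes. In the same comparison 7 of 9 neutrophil markers and 4 of 7 markers of dividing cells were 2-fold or more higher. The 2 skeletal muscle markers past the filter, Acta1 (-1.72) and Ckm (-2.19), were lower, as Per3 was. The part of these markers in the values of the clock genes was not tested.

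In the tumor effect without exercise (cancer control over normal control) 5 of 10 members were past the limit, against 46.2% of all genes, so that their share was near the background. Nr1d1, Dbp and Per1 were higher (3 of 10, background 20.6%) and Npas2 and Per2 lower (2 of 10, background 25.7%). With totals that leave out hemoglobin genes Per1 was at 0.96 and 2 were higher. All 10 intervals left out 0, as did 76.1% of those of all genes, the median was -0.52 beside -0.03, and the median absolute difference 0.92 beside 0.90. In this comparison all 7 epithelial, 5 endothelial and 7 erythroid markers, and all 4 B cell and 4 T cell markers past the filter, were 2-fold or more lower, and all 7 markers of dividing cells were higher, and their part in the values of the clock genes was not tested.

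In the exercise effect with tumor (cancer exercise over cancer control) 7 of 10 members were past the limit, against 42% of all genes. Npas2, Cry2, Per1 and Per2 were higher (4 of 10, background 24.3%) and Dbp, Arntl and Per3 lower (3 of 10, background 17.7%). Scaled by library totals alone, which placed the median of all genes at -0.60, Per1 and Per2 were inside the limit at 0.71 each, 2 members were higher and 3 lower, and these 5 of 10 stood against 51.8% of all genes. All 10 intervals left out 0, against 71.9% of all genes. The median of the members was 0.36 beside 0.01, or -0.25 beside -0.60 under library totals alone, and their median absolute difference 1.32 beside 0.81. Cell markers moved in this comparison as well: all 7 epithelial, 5 endothelial and 7 erythroid markers, and all 4 B cell and 4 T cell markers past the filter, were 2-fold or more higher in cancer exercise, and 6 of 7 markers of dividing cells were lower. Their part in the values of the clock genes was not tested.

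In the tumor effect with exercise (cancer exercise over normal exercise) 5 of 10 members were past the limit, against 27.8% of all genes. Nr1d1, Per1, Dbp and Cry2 were higher (4 of 10, background 14.9%) and Arntl lower (1 of 10, background 13%). With library totals alone Clock was lower too, and 6 of 10 members stood against 33.7% of all genes. Intervals left out 0 for 8 of 10 members and 64.4% of all genes, the median was 0.79 beside 0.00, and the median absolute difference 1.23 beside 0.57. The 9 neutrophil markers summed to 208000 normalized counts in cancer exercise, against 3944 in the normal control, 12200 in normal exercise and 11350 in the cancer control. All 9 were 2-fold or more higher in the tumor effect with exercise, and 8 of 9 in the exercise effect with tumor. All 7 erythroid, 7 dividing cell and 4 colon carcinoma epithelium markers were also 2-fold or more higher in the tumor effect with exercise. In the tumor effect without exercise 1 of the 4 colon carcinoma epithelium markers was higher and 2 were lower. Krt8, Krt18 and Krt19 of this list were also read in the normal control, at 841.2, 771.3 and 1470 normalized counts. The part of all these markers in the values of the clock genes was not tested.

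**Figure D2:**
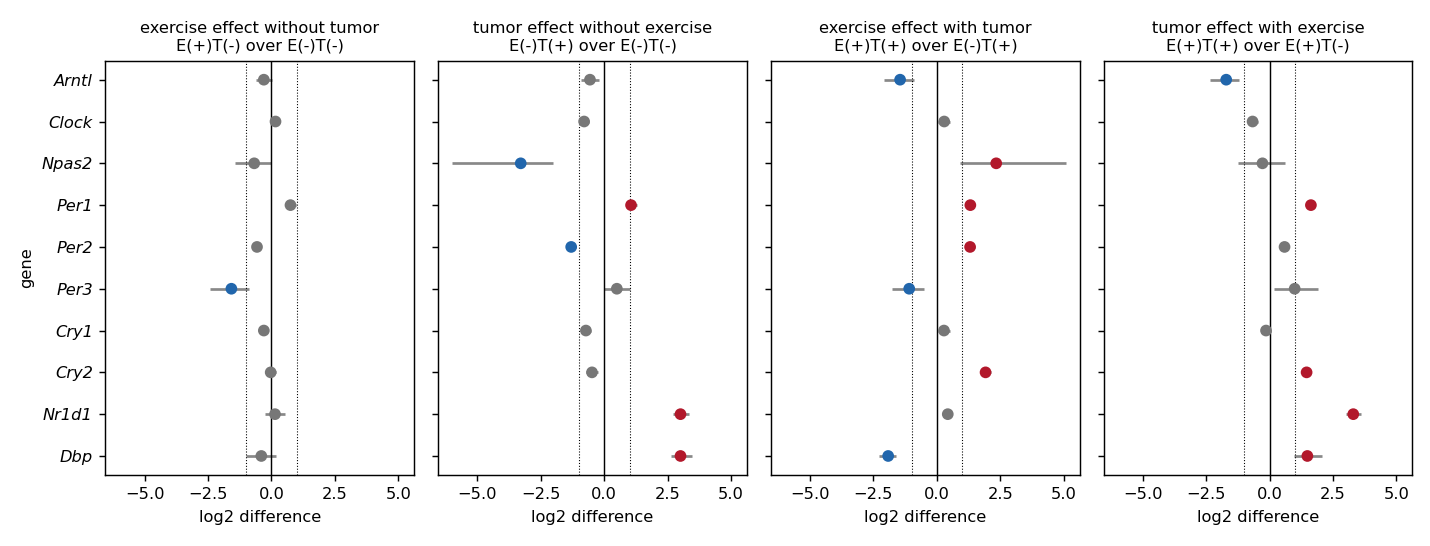
Log2 difference of each clock gene (points) with its exact 95% interval for counting error (lines) in the 4 comparisons; dotted lines mark the 2-fold limit, and red and blue points lie 2-fold or more above or below 0. Nr1d1 stands at 3.01 and 3.30 in the 2 tumor comparisons and at 0.14 and 0.43 in the exercise comparisons.

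To compare the limbs of the loop within each library, the mean log2 value of Arntl, Clock and Npas2 was subtracted from that of Per1, Per2, Per3, Nr1d1 and Dbp, targets of the activators. This set of 5 is a choice that holds the output gene Dbp and leaves out Cry1 and Cry2, which are repressors too. A difference taken within a library hardly depends on how libraries are scaled to each other. Its counting intervals are normal approximations, not exact ones, and are rough in the cancer control, where Npas2 had 3 reads. The level of the difference mixes genes of different abundance, so that only its change between libraries is read. It was -0.12 in the normal control and -0.18 in normal exercise, with counting intervals of -0.32 to 0.08 and -0.44 to 0.07. It was 2.68 in the cancer control (2.12 to 3.25) and 2.30 in cancer exercise (2.0 to 2.61). The libraries with tumor thus lay 2.81 above that without in resting mice and 2.49 above it in exercised mice, and the exercised library differed from the resting one by -0.06 without tumor and -0.38 with tumor. With Cry1 and Cry2 added, the tumor gaps were 2.27 and 2.22, and with the Per and Cry genes alone, without Nr1d1 and Dbp, they were 1.36 and 1.79. In resting mice the Per and Cry genes went both ways with tumor (Per1 1.06, Per3 0.50, Per2 -1.30, Cry1 -0.72 and Cry2 -0.48). Their mean did not rise, and the gap of 1.36 came from the lower mean of the activators, Npas2 among them. The mean of the 5 feedback genes was 7.15 and 6.81 without tumor and 8.40 and 8.41 with tumor, in resting and exercised mice. That of the 3 activators was 7.27 and 7.0 without tumor and 5.72 and 6.11 with tumor. Nr1d1 contributed to the gap in both tumor libraries, with tumor effects of 3.01 and 3.30. In the cancer control Npas2, 1 of only 3 activators, weighed more than any other gene in the gap, with its difference of -3.29 on 3 reads in a library where the endothelial and epithelial markers were also lowest. Without Npas2 the tumor gap was 1.93 in resting mice and 2.79 in exercised mice. The direction of the exercise difference with tumor turned with the genes chosen, to 0.35 with the Per and Cry genes alone and 0.59 without Npas2, and was -0.07 with Cry1 and Cry2 added.

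**Figure D3:**
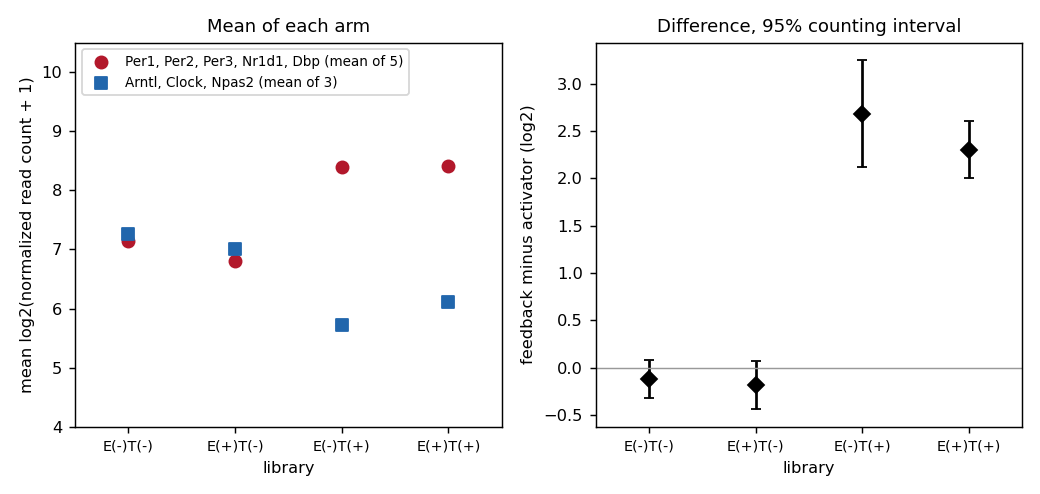
Mean log2(normalized read count + 1) of 5 feedback genes and 3 activator genes in each library (left) and the feedback mean minus the activator mean with its 95% counting interval (right), with 1 library per group. The intervals are normal approximations. The difference is -0.12 and -0.18 in the libraries without tumor and 2.68 and 2.30 in the libraries with tumor.

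Within single pairs, the log2 ratio of Nr1d1 to Arntl, the repressor and its target, was -0.90 and -0.46 in the resting and exercised libraries without tumor and 2.67 and 4.56 in those with tumor. The ratio of Dbp to Arntl was -1.69 and -1.80 without tumor and 1.88 and 1.41 with tumor. For both pairs the 2 tumor libraries lay above the 2 libraries without tumor.

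The other transcription factors of the loop were taken from a list of 10, namely Nr1d2, Rora, Rorb, Tef, Hlf, Nfil3, Bhlhe40, Bhlhe41, Ciart and Arntl2, all of which passed the filter. In the tumor effect without exercise 5 of the 10 were 2-fold or more higher and 1 lower, against 20.6% and 25.7% of all genes. In the tumor effect with exercise 4 were higher and 0 lower, against 14.9% and 13%. Nr1d2, the REV-ERB beta paralog of Nr1d1, was 2.04 higher in resting mice (1.82 to 2.26) and 2.06 higher in exercised mice (1.80 to 2.35). Its log2 values were 7.57 and 7.10 without tumor and 9.60 and 9.16 with tumor, so that both REV-ERB genes were higher in the tumor libraries. Nr1d2 was lower with exercise in tumor-bearing mice (-0.44, interval -0.61 to -0.27), where Nr1d1 was at 0.43, both at the deposited scaling. Scaling by total reads only put Nr1d1 at -0.18 there and the median of all genes at -0.60. No such value was taken for Nr1d2. Ciart, a repressor of the CLOCK and ARNTL pair, was 3.08 higher in resting mice (2.27 to 4.25). Of the 9 genes of the list with a promoter window, Ciart, Tef and Bhlhe41 held the E-box letters, Nfil3 held the ROR core, and Nr1d2 held neither.

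Rora, which activates through the ROR element, was the gene of the list past the limit with lower values in the cancer control (-1.90, interval -2.10 to -1.72). It had a log2 value of 8.20 in the cancer control, against 10.10 in the normal control, 10.19 in normal exercise and 10.09 in cancer exercise. The endothelial and epithelial markers were lowest in the cancer control too, and their part in the Rora values was not tested. Nfil3, which represses through the D-box, was 2.03 higher with tumor in resting mice (1.73 to 2.36) and had the largest tumor difference of the list in exercised mice, 3.11 (2.90 to 3.34). All 9 neutrophil and 7 dividing cell markers were higher in that comparison as well, and their part in the values of this list was not tested. Bhlhe40, an E-box repressor, differed by 1.86 there (1.61 to 2.12). With exercise 2 of the 10 were 2-fold or more higher and 1 lower without tumor (all genes 5.28% and 4.7%), and 2 were higher and 3 lower with tumor (all genes 24.3% and 17.7%). Ciart was higher without tumor (1.11, interval 0.08 to 2.36), and Nfil3 (1.99, interval 1.82 to 2.17) and Rora (1.90, interval 1.70 to 2.10) were higher with tumor. Hlf, a D-box activator related to Dbp, was lower with exercise without tumor (-1.30, interval -1.64 to -0.99). Its log2 values were 7.98 in the normal control, 6.67 in normal exercise, 8.5 in the cancer control and 6.84 in cancer exercise, so that both exercised libraries were below both resting ones, as with Per3. Bhlhe41, another E-box repressor, was lower with exercise in tumor-bearing mice (-2.02, interval -2.54 to -1.57).

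Among 6 genes for the kinases and ubiquitin ligases that set the stability of PER and CRY proteins (Csnk1d, Csnk1e, Fbxl21, Btrc, Fbxw11 and Gsk3b), 5 passed the filter and 0 reached the 2-fold limit in any of the 4 comparisons, in which 9.98% to 46.2% of all genes did. Among 5 clock-controlled outputs (Wee1, Nampt, Usp2, Noct, which the files list as Ccrn4l, and Cdkn1a), 4 were 2-fold or more higher and 0 lower in each tumor comparison, against 20.6% of all genes higher in resting mice and 14.9% in exercised mice. With exercise 2 were higher and 0 lower without tumor (Cdkn1a 1.47 and Ccrn4l 1.18, all genes higher 5.28%), and 1 was higher and 1 lower with tumor (Cdkn1a 2.33 and Wee1 -1.45, all genes 24.3% and 17.7%). The largest were Ccrn4l and Wee1 in resting mice, at 2.51 (1.96 to 3.19) and 1.87 (1.66 to 2.10), and Ccrn4l and Cdkn1a in exercised mice, at 2.01 (1.61 to 2.47) and 1.91 (1.86 to 1.95). Wee1 is a mitotic kinase gene and Cdkn1a a cell cycle inhibitor gene. All 7 markers of dividing cells were also 2-fold or more higher in both tumor comparisons, and their part in the output values was not tested.

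**Figure D4:**
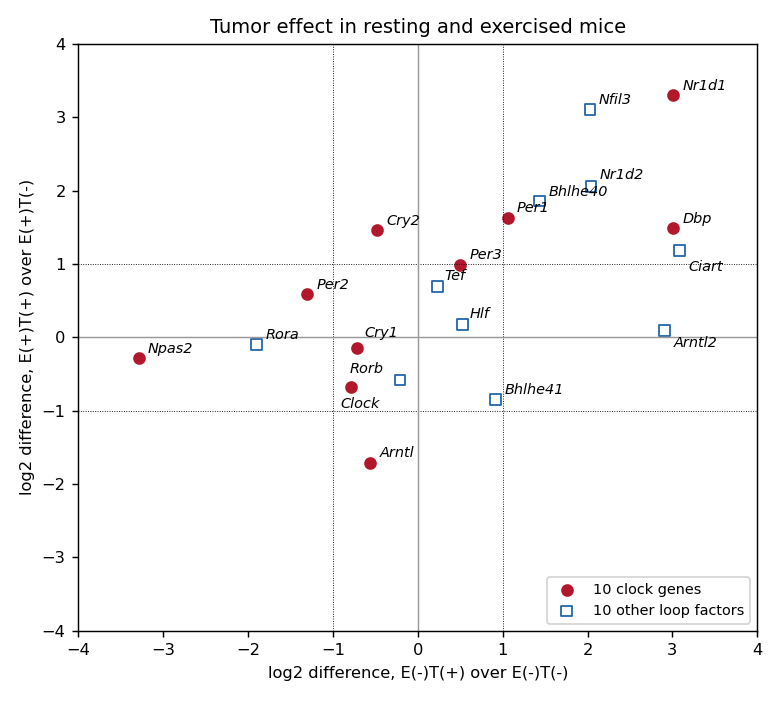
Tumor effect in resting mice (horizontal) against tumor effect in exercised mice (vertical), as log2 differences from disjoint pairs of libraries, for the 10 clock genes (filled circles) and 10 other loop factors (open squares); dotted lines mark the 2-fold limit. Nr1d1, Nr1d2, Nfil3, Bhlhe40, Dbp, Ciart and Per1 lie past the limit on both axes in the upper right, and none does so in the lower left.

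The 4 libraries allow 1 test across genes, an additive fit with exercise and tumor as factors. The spread comes from the interaction, with 1 residual degree of freedom per gene. It is moderated by limma toward the spread of all genes at a similar level. The p-values therefore rest in large part on the interactions of other genes, and this spread is not one between mice. For tumor, limma called Nr1d1 alone among the members, with a log2 difference of 3.16 ± 0.49 (SE) and an adjusted p of 0.00513, against a background of 3.26% of 15164 genes. Nr1d1 was higher in both tumor libraries. Its adjusted p lay between 3.16e-07 and 0.0177 over the 5 alternative settings. Dbp had a tumor difference of 2.25 ± 0.68 with an adjusted p of 0.0811 in limma, and Per1 one of 1.34 ± 0.45 with an adjusted p of 0.121, so that neither passed. For exercise limma called 0 members and 0 genes (0%) at an adjusted p under 0.05. At an unadjusted p under 0.05 there were 1 member, Per1, and 4.97% of all genes, and over the alternative settings 0 to 58 genes and 0 members passed after adjustment. Where the interaction is large, as for Npas2, Per2 and Cry2, this fit counts it as error.

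Genes with the most similar profile were sought among 11216 genes that averaged 50 normalized counts or more, by the root mean square difference of log2 values centered over the 4 libraries. The 5 closest to Dbp were Pcdh7 (0.03), Rcor2 (0.06), BC052040 (0.06), Mlkl (0.08) and Tcf19 (0.09). The 5 closest to Arntl were Tbc1d8b (0.08), Pot1a (0.09), Zfp862-ps (0.10), Tns3 (0.11) and Smarcad1 (0.12). None of these 10 is a member of the clock lists used here, and over only 4 libraries such likeness describes the libraries.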

How the data were processed

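Lung RNA was measured in 4 libraries, 1 per group. The authors made QuantSeq 3' mRNA libraries, aligned reads with Bowtie2 (mm10), counted them with bedtools and scaled them with the quantile method of edgeR. Versions, annotation and use of strand are not given in the sources used here. The values the authors deposited are log2(normalized read count + 1) at 3 decimals.

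Whole reads were recovered by fitting relative library sizes and 1 dispersion (0.372) of a negative binomial quantile adjustment. The recovered reads gave back 100% of the values within 0.001. They served for totals, alternative scalings and exact 95% (Clopper-Pearson) intervals of read ratios, scaled by the fitted sizes. The detection floor of 3 reads came to between 0.224 and 0.321 CPM. Intervals and floors cover counting error only, because each group had 1 library. Reads copied by PCR were not told apart by molecular identifiers, so that the intervals may be too narrow even for counting error.

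Comparisons were differences of deposited log2 values, with the study's limits of 2-fold and a normalized read count of 4, taken here as the mean. The additive fit used limma 3.58.1 in R 4.3.3 (trend, Benjamini-Hochberg over 15164 rows) on log2 values. Other steps used Python 3.11.15 and scipy 1.17.1, and were tested on simulated data. Alternatives changed the pseudocount, filter, scaling and fold limit. All members were named. Of other lists, at most the 3 largest differences per comparison at a mean count of at least 10 were named, plus 5 profile neighbors each of Dbp and Arntl; the tumor value of Rora and the exercise value of Nr1d2 were added after their values were seen. Members and lists were chosen with earlier results of these data known. Certain items are not reported here, and lists were counted without them.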

Additional observations from a re-analysis of the deposited data

Results flagged for a closer look

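For 3 members an effect pointed in opposite directions in the 2 states of the other factor, with exact 95% intervals that both left out 0. With 1 library per group these differences between effects were not tested. The gap given for each gene is the exercise effect with tumor minus that without, which equals the tumor effect with exercise minus that without.

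Per2 differed this way for exercise (-0.57 without tumor, 1.31 with tumor) and for tumor (-1.30 in resting, 0.59 in exercised mice), with a gap of 1.88 on the log2 scale. Cry2 did so for tumor, -0.48 in resting and 1.46 in exercised mice, with a gap of 1.95. Cry1 did so for exercise, by small amounts of -0.30 and 0.28, with a gap of 0.58. Scaled by library totals alone, the second of these Cry1 values became -0.33.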

How the results depend on the processing

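The direction of each member in each comparison was the same under a pseudocount of 4, median-of-ratios size factors and library totals without hemoglobin genes. Library totals alone moved the median of all genes to -0.60 for exercise with tumor and -0.41 for tumor with exercise. The share of higher genes among those past the limit then went from 57.8% to 31.2% and from 53.5% to 27.8%. Under it the median of the clock genes in the exercise effect with tumor was -0.25 in place of 0.36, above that of all genes in both cases. Clock, Cry1 and Nr1d1 then changed sign in that comparison, to -0.32, -0.33 and -0.18. Dbp was -2.52 there, and for tumor with exercise Nr1d1 was 2.89, Per1 1.22, Cry2 1.05, Per2 0.18 and Cry1 -0.55. For exercise without tumor, 0 members were past the limit when a mean of 100 normalized counts was required, where Per3 is not tested and 2.13% of all genes were past it, and 3 at a 1.5-fold limit, against 22.5% of all genes. In the tumor effect with exercise 8 were past 1.5-fold, against 48.8% of all genes. At that limit 7 were past it in each of the remaining pair of comparisons, against 65.3% of all genes for tumor without exercise and 61.9% for exercise with tumor. Without the filter the additive fit called 2 members for tumor, Nr1d1 and Dbp. Over all genes it called 495 for tumor, and 272 to 1284 under the alternatives. Subtracting 1.47% of each cancer control level from normal exercise, an alternative chosen after seeing the data, put Per3 past the limit in the tumor effect with exercise (1.09) and Nr1d1 at -0.02 in the exercise effect without tumor. The feedback minus activator difference stayed between 2.24 and 2.71 in the tumor libraries and between -0.28 and -0.12 in the others under all settings run on these genes. With Cry1 and Cry2 added, a choice made after seeing the data, its level became 0.33 in the normal control and 0.32 in normal exercise. With the Per and Cry genes alone, chosen likewise, it was 0.94 in the normal control, 0.87 in normal exercise, 2.31 in the cancer control and 2.66 in cancer exercise. Without Npas2, also chosen likewise, it was -1.05 in the normal control, -1.31 in normal exercise, 0.89 in the cancer control and 1.48 in cancer exercise. Npas2, at 3 reads in the cancer control, is limited by depth. No paired analysis was possible because each group has 1 library.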
